A study of Mus musculus with 6 samples.

Results

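The genes described here are the antioxidant genes of the NRF2, glutathione, thioredoxin and NADPH systems, measured in mouse alveolar macrophages, which live in the air spaces of the lung. Of 37 genes on the list, all 37 were in the deposited count table of 16840 genes, and 36 had the 60 or more counts over the 6 libraries that membership required. The gene left out was Gstm2, a glutathione transferase, which had between 2 and 5 counts per library (0.154 to 0.175 CPM with DON, 0.0671 to 0.0880 CPM with GM-CSF alone and 0.0891 to 0.154 CPM without GM-CSF). Me1 was the least abundant member, with 458 counts in all, and all 36 members passed the filter on low counts that left 12340 genes for testing.

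RNA sequencing covered 3 groups of 2 libraries each, all from wild-type (WT) alveolar macrophages at day 2 of the experiment. The groups were GM-CSF with DON, GM-CSF alone, and no GM-CSF. GM-CSF is the cytokine that alveolar macrophages need for their development and upkeep, and DON is a treatment that the labels give by these letters only, without a dose. The labels give the cell line as AM without saying whether these were primary cells. Nor do they say whether replicates 1 and 2 came from different cultures or mice, so the tests reflect no more than the scatter between libraries, which may be technical. Below, "with DON" stands for the group that had both GM-CSF and DON. The values are CPM (counts scaled to library depth, with TMM scaling) given for replicates 1 and 2, or the deposited FPKM (fragments scaled to gene length and depth) where genes are set against each other. Fold changes are log2 values ± SE from edgeR's quasi-likelihood test, adjusted by the Benjamini-Hochberg method over all 12340 genes, and the words rose and fell are used of genes with an adjusted p under 0.05. In bulk RNA, fewer cells of a type and less RNA per cell cannot be told apart.

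NRF2, encoded by Nfe2l2, is a transcription factor that KEAP1 holds at a low level until oxidants or electrophiles modify KEAP1. It then binds antioxidant response elements together with small MAF proteins and drives genes that make and use glutathione and thioredoxin and that supply NADPH. Glutathione and thioredoxin carry electrons from NADPH to peroxidases, transferases attach glutathione to electrophiles, and the oxidative branch of the pentose phosphate pathway is a main source of that NADPH. In alveolar macrophages these systems stand beside the oxidative burst and the load of inhaled oxidants.

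The core of the antioxidant response element, TGACNNNGC, was looked for on both strands in the RefSeq promoters of the members (GRCm38.p6, 250 bases before to 50 after each annotated start). A promoter was available for 32 of the 36 members, and 10 of the 32 (31.2%) held the core at 1 start or more, against 14% of the 27025 genes in the promoter table and 17.2% of the 9495 tested genes that could be matched to it (76.9% of those tested). The core followed by an A was in 2 of the 32 (6.25%), Pgd and Txnrd1, against 3.45% of the promoter table and 3.18% of the matched tested genes. The 30 bases around each match are shown because they let the matched genes be set against each other, with the match in capitals and each sequence written 5′ to 3′ on the strand of the gene.
Nfe2l2, chr2:75704884-75704913, - strand: tcagcccaccTGACTCCGCcatgccccgga
Gclm, chr3:122245412-122245441, + strand: cgctcccgggcGCACCGTCAactctcacga
Srxn1, chr2:152105541-152105570, + strand: ggcagtgggcaGCTAGGTCAgagtgagaca
Prdx1, chr4:116685455-116685484, + strand: ccagggaaagcGCTGAGTCAtcccccgtag
Txnrd1, chr10:82859103-82859132, + strand: actggatttttGCTTTGTCAttctgacacg
Mgst1, chr6:138140460-138140489, + strand: ggcggggcttgGCACGGTCAggaggcgggg
Sod1, chr16:90220695-90220724, + strand: tgccaaggtggGCGTGGTCAgactcaggcc
G6pdx, chrX:74428919-74428948, - strand: gaggcgggtcaGCTCAGTCAaagcacacgc
Pgd, chr4:149166061-149166090, - strand: catttcagagcTGACATTGCactgatcgga
Me1, chr9:86695902-86695931, - strand: cgatgccgccgTGACTCAGCgcttctcgcg
In Nfe2l2, Pgd and Me1 the core read TGACNNNGC on the strand of the gene, and in the other 7 it lay on the opposite strand. The matches of Prdx1 and Me1 also held the AP-1 motif TGANTCA. Those of Srxn1 and Pgd began at base 29 and base 4 from the start, and those of Pgd, Mgst1, Me1 and Txnrd1 lay at 1 of the several starts annotated for each gene (2 for Pgd, Mgst1 and Me1, and 3 for Txnrd1). A match is a description of these letters and not of binding.

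The 250 bases before the start are given for Prdx1, the member with the highest FPKM in all 3 groups, and for Gstm1, which had the largest rise with DON and whose 2 annotated promoters held no match.
Prdx1, chr4:116685349-116685598, + strand: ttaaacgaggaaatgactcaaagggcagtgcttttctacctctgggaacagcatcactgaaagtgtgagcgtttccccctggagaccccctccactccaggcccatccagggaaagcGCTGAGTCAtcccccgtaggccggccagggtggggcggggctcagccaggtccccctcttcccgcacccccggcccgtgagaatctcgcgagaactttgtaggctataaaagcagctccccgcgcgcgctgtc
Gstm1, chr3:108017974-108018223, - strand: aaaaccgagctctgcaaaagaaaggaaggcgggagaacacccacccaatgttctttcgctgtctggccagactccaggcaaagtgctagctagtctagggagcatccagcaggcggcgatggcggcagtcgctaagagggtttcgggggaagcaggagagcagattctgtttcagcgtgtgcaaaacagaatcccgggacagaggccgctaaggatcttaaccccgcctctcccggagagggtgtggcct
The capitals in the Prdx1 sequence mark the same core as above.

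Total counts were 28321986 to 35196387 per library. Of 13 alveolar macrophage markers, all were in the table, and their summed level was 36997 and 35256 CPM with DON, 31632 and 31390.2 CPM with GM-CSF alone, and 46814 and 46283 CPM without GM-CSF. Most of that sum was Lyz2, and the other 12 markers summed to 17327 and 17099 CPM with DON, 14531 and 14338 CPM with GM-CSF alone and 10194 and 9713 CPM without GM-CSF, so that the order of the groups depended on Lyz2. The markers went both ways, with a mean that was higher with GM-CSF alone than without GM-CSF for 5 of the 13 and lower for 8. Among them, Car4 averaged 314 CPM with DON, 656 CPM with GM-CSF alone and 0.226 CPM without GM-CSF, while Fabp4 averaged 499 CPM with DON, 322 CPM with GM-CSF alone and 709.7 CPM without GM-CSF. Of markers of other cells, 4 of 8 for lymphocytes, 4 of 7 for granulocytes, 8 of 8 for epithelium, 5 of 5 for stroma and endothelium and 6 of 6 for dendritic cells were in the table, and none of these was at 0 in every library. Epithelial markers summed to 106 and 109 CPM with DON, 166 and 172 CPM with GM-CSF alone, and 117 and 103 CPM without GM-CSF, nearly all from Cdh1 and Abca3, with Sftpc and Sftpb at or under 0.0456 CPM on average. Stromal and endothelial markers stayed at or under 1.82 CPM and lymphocyte markers at or under 199 CPM in every library. The lymphocyte sum was nearly all Cd2, while Cd79a and Cd4 stayed at or under 0.453 CPM on average. Dendritic markers summed to 25.4 and 25.6 CPM with DON, 28.1 and 27.7 CPM with GM-CSF alone, and 8.82 and 8.65 CPM without GM-CSF, and granulocyte markers to 71.5 and 74.0 CPM with DON, 61.3 and 63.4 CPM with GM-CSF alone, and 111 and 115 CPM without GM-CSF. Mitochondrially encoded genes took 2.47% to 2.6% of counts with DON, 2.22% to 2.62% with GM-CSF alone and 3.15% to 3.28% without GM-CSF. The part of these differences in the results below was not tested.

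GM-CSF alone was set against no GM-CSF to ask what the cytokine did to these genes. Most of the antioxidant genes were lower with it: 32 of 36 passed the test, against 56.8% of all genes tested. Of these, 28 fell (77.8% of members), against 29.3% of all genes, and 4 rose (11.1%), against 27.5%. The median log2 fold change of the members was -0.55, beside -0.02 over all genes tested. The largest falls were of the transferases Mgst2 and Gstm1 and of the secreted peroxidase Gpx3. The 4 that rose were Prdx6, Prdx4, Prdx3 and Txn2. Taken as a share of each library, members made up 0.724% and 0.711% of counts with GM-CSF alone and 1.10% and 1.11% without it.

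GM-CSF with DON was set against GM-CSF alone to ask what DON did in the presence of the cytokine. Members moved both ways. Of 36, 24 passed the test, against 57.6% of all genes tested. Of the members, 11 rose (30.6%), against 28.8% of all genes, while 13 fell (36.1%), against 28.8%. These shares are near those of all genes, and the median was -0.05 beside 0.01. Gstm1, Mgst1 and Txn1 had the largest rises, and Gpx3, Txnrd1, Prdx4, Prdx6 and G6pdx the largest falls among members called changed. The number of members that rose was 7 with DON replicate 1 left out and also 7 with GM-CSF replicate 2 left out. With upper quartile scaling 13 members rose and 10 fell, while of all genes tested 4268 rose and 2970 fell, against 3555 and 3556 with TMM.

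GM-CSF with DON was also set against no GM-CSF. Here too 32 of 36 members passed the test, against 55.6% of all genes tested. Of the members, 26 fell (72.2%), against 28.4% of all genes, and 6 rose (16.7%), against 27.2%, with a median of -0.42 beside 0.01. The members that rose were Prdx6, Gss, Mgst1, Gsto1, Prdx3 and Txn2. The GM-CSF libraries are in both of the first comparisons, and every pair of comparisons shares a group, so each is given below with its own values.

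**Figure D1:**
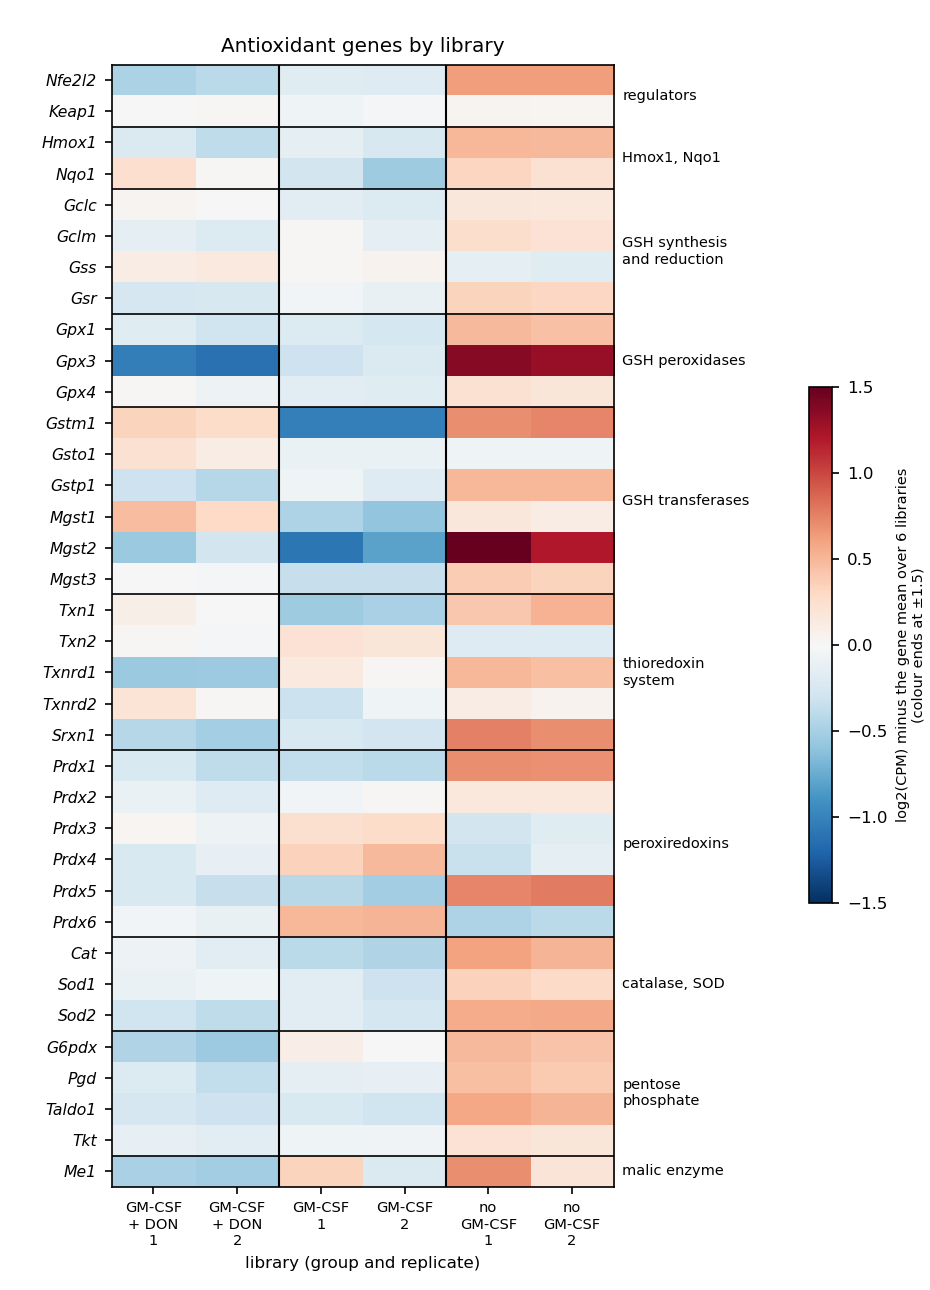
Level of the 36 members in each library, as log2(CPM) minus the mean of the gene over the 6 libraries, with families separated by lines. The 2 libraries without GM-CSF are highest for most rows, while Prdx3, Prdx4, Prdx6 and Txn2 are highest with GM-CSF alone, and the Gstm1 row is lowest there.

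**Figure D2:**
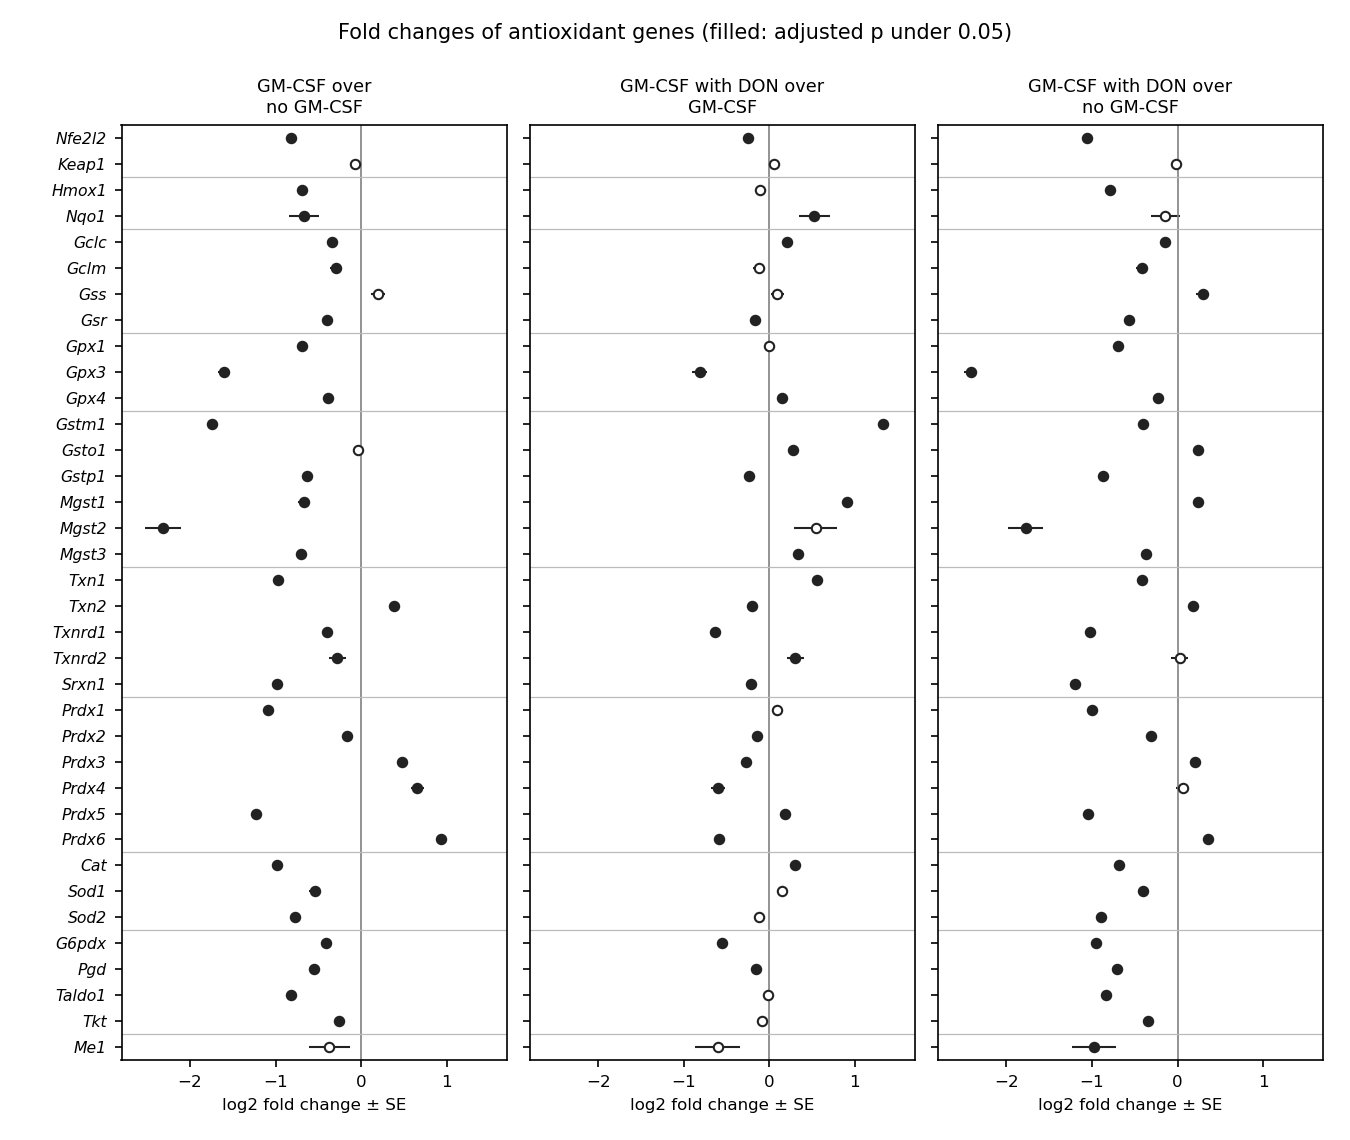
Log2 fold change ± SE of each member in the 3 comparisons, with filled points for an adjusted p under 0.05 and open points otherwise. In the first panel 28 filled points lie left of 0 and 4 right of it, and in the middle panel 11 lie right and 13 left.

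Of the regulators, Nfe2l2 was at 354 and 371 CPM with DON, 431 and 430.4 CPM with GM-CSF alone and 758 and 757 CPM without GM-CSF. The 3 groups did not overlap, and the level was lowest with DON. Nfe2l2, on chromosome 2 from 75675513 to 75704641 (GENCODE M21 on GRCm38, as for the gene positions below), fell with GM-CSF (-0.81 ± 0.04, adjusted p = 7.65e-08) and was lower again with DON than with GM-CSF alone (-0.25 ± 0.04, adjusted p = 0.00036). Keap1, the adaptor that targets NRF2 for degradation, was at 50.4 and 50.8 CPM with DON, 47.9 and 49.7 CPM with GM-CSF alone and 51.5 and 51.2 CPM without GM-CSF. No comparison of Keap1 passed the test, with log2 fold changes of -0.07 ± 0.05 for GM-CSF, 0.05 ± 0.05 for DON and -0.02 ± 0.05 for both agents against no GM-CSF. By FPKM, Nfe2l2 stood at 159 ± 5.21 with DON, 191 ± 0.0336 with GM-CSF alone and 334 ± 0.916 without GM-CSF, against 14.7 ± 0.175, 14.0 ± 0.297 and 15.0 ± 0.244 FPKM of Keap1 in the same groups (SD, n = 2).

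Hmox1, haem oxygenase, which breaks down haem, was at 254 and 227 CPM with DON, 266 and 250.3 CPM with GM-CSF alone and 417 and 415 CPM without GM-CSF. It was higher without GM-CSF than in either other group, and the libraries with and without DON overlapped. Hmox1 fell with GM-CSF by 1.61-fold (-0.69 ± 0.06, adjusted p = 3.71e-06), and its difference with DON was -0.10 ± 0.06 (adjusted p = 0.143), which passed the test with DON replicate 1 left out (-0.19, adjusted p = 0.0221). Its adjusted p for DON lay between 0.0221 and 0.785 over the 15 alternatives. Nqo1, a quinone reductase and a widely used NRF2 target, was scarce in these cells, at 3.53 and 3.01 CPM with DON, 2.46 and 2.05 CPM with GM-CSF alone and 3.72 and 3.48 CPM without GM-CSF. Nqo1 fell with GM-CSF (-0.67 ± 0.18, adjusted p = 0.0098) and rose with DON (0.53 ± 0.18, adjusted p = 0.0322). The fall was not called in DESeq2 (-0.66, adjusted p = 0.0615) and with GM-CSF replicate 2 left out (-0.54, adjusted p = 0.067), over a range of adjusted p between 0.00706 and 0.067. The rise was not called in DESeq2 (0.52, adjusted p = 0.16), with DON replicate 1 left out (0.41, adjusted p = 0.17) and with GM-CSF replicate 2 left out (0.40, adjusted p = 0.16), over a range between 0.0169 and 0.17.

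Of the 4 genes of glutathione synthesis and reduction, 3 fell with GM-CSF, and with DON 1 rose and 1 fell, all by less than 1.5-fold. Over all genes tested 29.3% fell with GM-CSF, and with DON 28.8% rose and 28.8% fell. Gclc, the catalytic subunit of the enzyme that makes gamma-glutamylcysteine, was at 55.2 and 53.3 CPM with DON, 47.8 and 46.4 CPM with GM-CSF alone and 59.9 and 59.7 CPM without GM-CSF. The groups did not overlap, with the GM-CSF libraries lowest. Gclc fell with GM-CSF (-0.34 ± 0.05, adjusted p = 0.000227) and rose with DON (0.20 ± 0.05, adjusted p = 0.00638), a call that was lost with GM-CSF replicate 2 left out (0.18, adjusted p = 0.0507), with adjusted p between 0.00107 and 0.0507 over the alternatives. Against no GM-CSF, Gclc was lower with DON (-0.14 ± 0.05, adjusted p = 0.0354), a call lost with scaling by total counts (-0.04, adjusted p = 0.478), with upper quartile scaling (-0.10, adjusted p = 0.143), with no filter on low counts (-0.14, adjusted p = 0.0613), in DESeq2 (-0.15, adjusted p = 0.125), in limma on log2(FPKM + 1) (-0.14, adjusted p = 0.0718), with DON replicate 1 left out (-0.17, adjusted p = 0.0557), with DON replicate 2 left out (-0.11, adjusted p = 0.164), with GM-CSF replicate 2 left out (-0.14, adjusted p = 0.0504), with no GM-CSF replicate 1 left out (-0.14, adjusted p = 0.103) and with no GM-CSF replicate 2 left out (-0.15, adjusted p = 0.095), over a range between 0.0303 and 0.478. Gclm, its modifier subunit, was at 43.9 and 42.2 CPM with DON, 49.4 and 44.2 CPM with GM-CSF alone and 58.5 and 56.7 CPM without GM-CSF. Gclm fell with GM-CSF (-0.30 ± 0.06, adjusted p = 0.00242). With DON its difference was -0.12 ± 0.06 (adjusted p = 0.132), and it passed in limma on log2(FPKM + 1) (-0.34, adjusted p = 0.00404) and with GM-CSF replicate 2 left out (-0.20, adjusted p = 0.0386), with adjusted p between 0.00404 and 0.656 in all.

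Gss, glutathione synthetase, was at 14.5 and 14.9 CPM with DON, 13.6 and 14.0 CPM with GM-CSF alone and 12.1 and 11.9 CPM without GM-CSF. It was the one gene of this group that was highest with DON and lowest without GM-CSF, with no overlap between groups. The difference of Gss between DON and GM-CSF alone did not pass the test (0.09 ± 0.08, adjusted p = 0.317). Gss was higher with DON than in the absence of GM-CSF (0.29 ± 0.08, adjusted p = 0.00931), a call that was lost in DESeq2 (0.29, adjusted p = 0.0931) and with no GM-CSF replicate 2 left out (0.27, adjusted p = 0.0542), over a range between 0.00188 and 0.0931. The difference between GM-CSF and no GM-CSF was 0.20 ± 0.08 (adjusted p = 0.0528), and it passed with DESeq2 size factors (0.21, adjusted p = 0.0446), with scaling by total counts (0.32, adjusted p = 0.00598) and in a fit of only the 4 libraries compared (0.22, adjusted p = 0.0437), over a range between 0.00598 and 0.248. Gsr, glutathione reductase, which spends NADPH to restore glutathione, was at 145 and 147 CPM with DON, 168 and 159.9 CPM with GM-CSF alone and 218 and 214 CPM without GM-CSF. Its 3 groups did not overlap, and Gsr fell with GM-CSF (-0.40 ± 0.04, adjusted p = 2.91e-05) and again with DON (-0.17 ± 0.04, adjusted p = 0.0084). The DON call was lost with upper quartile scaling (-0.09, adjusted p = 0.117) and with GM-CSF replicate 1 left out (-0.14, adjusted p = 0.0667), with adjusted p between 0.00293 and 0.117 over the alternatives.

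Among the glutathione peroxidases, Gpx3, the secreted plasma form, was at 7.38 and 7.0 CPM with DON, 12.2 and 13.1 CPM with GM-CSF alone and 39.1 and 37.6 CPM without GM-CSF. The groups were far apart, with the DON libraries lowest. Gpx3 fell 3.03-fold with GM-CSF (-1.60 ± 0.07, adjusted p = 5.03e-08) and a further 1.76-fold with DON (-0.81 ± 0.09, adjusted p = 2.43e-05), so that it was 5.34-fold lower with DON than without GM-CSF (-2.42 ± 0.08), the largest difference of any member in that comparison. Gpx1, the abundant cytosolic form, was at 289 and 266 CPM with DON, 284 and 272 CPM with GM-CSF alone and 458 and 443 CPM without GM-CSF. Gpx1 fell with GM-CSF (-0.70 ± 0.05, adjusted p = 1.17e-06), and the libraries with and without DON overlapped (adjusted p = 0.965, log2 fold change -0.0029 ± 0.05). Gpx4, which reduces lipid peroxides, was at 277 and 259.7 CPM with DON, 243 and 240.0 CPM with GM-CSF alone and 321 and 309.7 CPM without GM-CSF. Gpx4 fell with GM-CSF (-0.39 ± 0.04, adjusted p = 4.62e-05) and rose with DON (0.15 ± 0.05, adjusted p = 0.0146). The rise was not called with DON replicate 1 left out (0.11, adjusted p = 0.116), with GM-CSF replicate 1 left out (0.16, adjusted p = 0.0572) and with GM-CSF replicate 2 left out (0.14, adjusted p = 0.0752), over a range between 0.00137 and 0.116. An annotated copy, Gpx4-ps2, holds 34.7% of the 50-base words of Gpx4's transcripts, so its reads are of uncertain origin.

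The glutathione transferases, which join glutathione to electrophiles, numbered 6. With GM-CSF 5 fell and 0 rose (median -0.69), while 29.3% of all genes tested fell and 27.5% rose. With DON 4 rose and 1 fell (median 0.44), while 28.8% of all genes rose and 28.8% fell. Gstm1, on chromosome 3 from 108012255 to 108017973, was at 910.3 and 876 CPM with DON, 354 and 355 CPM with GM-CSF alone and 1167 and 1199 CPM without GM-CSF. The GM-CSF libraries were far below the others and nearly equal to each other. Gstm1 fell 3.34-fold with GM-CSF (-1.74 ± 0.04, adjusted p = 5.13e-10), rose 2.52-fold with DON (1.33 ± 0.04, adjusted p = 1.96e-08), and was 1.32-fold lower with DON than without GM-CSF (-0.41 ± 0.04, adjusted p = 9.41e-06). Other genes hold 18.9% of the 50-base words of Gstm1's transcripts, most of them the copy Gstm2-ps1.

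Mgst1, a microsomal transferase that also reduces lipid peroxides, was at 204 and 181 CPM with DON, 107 and 98.1 CPM with GM-CSF alone and 166 and 159.7 CPM without GM-CSF. The DON libraries were the highest and the GM-CSF libraries the lowest, with no overlap. Mgst1 fell with GM-CSF (-0.67 ± 0.06, adjusted p = 1.24e-05) and rose 1.88-fold with DON (0.91 ± 0.07, adjusted p = 1.91e-06). Its rise over the libraries without GM-CSF (0.24 ± 0.06, adjusted p = 0.00953) was lost in limma on log2(FPKM + 1) (0.22, adjusted p = 0.0568) and with DON replicate 1 left out (0.15, adjusted p = 0.0974), over a range between 0.00081 and 0.0974. Mgst3, of the same membrane family, was at 49.8 and 48.6 CPM with DON, 38.9 and 38.8 CPM with GM-CSF alone and 64.6 and 62.1 CPM without GM-CSF. It fell with GM-CSF (-0.70 ± 0.05) and rose with DON (0.34 ± 0.05), with adjusted p of 1.57e-06 and 0.000314. Mgst2, which can also make leukotriene C4, was scarce, at 1.43 and 1.75 CPM with DON, 0.998 and 1.21 CPM with GM-CSF alone and 6.09 and 4.87 CPM without GM-CSF. Mgst2 had the largest fall of any member with GM-CSF, 4.97-fold (-2.31 ± 0.21, adjusted p = 8.86e-06), and with DON its difference was 0.54 ± 0.25 (adjusted p = 0.0877).

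Gsto1, an omega-class enzyme with thioltransferase activity, was at 207 and 192 CPM with DON, 165 and 165 CPM with GM-CSF alone and 169 and 169 CPM without GM-CSF. The levels with GM-CSF alone and without it lay close together, and those with DON were higher. Gsto1 rose with DON (0.27 ± 0.05, adjusted p = 0.000775), and its difference with GM-CSF was -0.03 ± 0.05 (adjusted p = 0.575). Gstp1, a cytosolic pi-class enzyme, was at 47.3 and 43.6 CPM with DON, 56.0 and 51.1 CPM with GM-CSF alone and 82.9 and 82.8 CPM without GM-CSF. It was the member of the family that fell in both comparisons, with GM-CSF (-0.63 ± 0.06, adjusted p = 1.25e-05) and with DON (-0.24 ± 0.06, adjusted p = 0.00827), and its groups did not overlap. The fall with DON was not called with DON replicate 2 left out (-0.18, adjusted p = 0.0789) and with GM-CSF replicate 1 left out (-0.17, adjusted p = 0.0835), over a range between 0.00359 and 0.0835. Gstp2, a near copy, holds 33.7% of the 50-base words of Gstp1's transcripts, so reads may be split between them. Unlike Gstp1, Gstp2 rose with DON (0.73 ± 0.25, adjusted p = 0.0298), and it was not called with GM-CSF (-0.15 ± 0.26, adjusted p = 0.647). The part of shared reads in this was not tested. By FPKM, the family summed to 1449 ± 60.7 FPKM with DON, 798 ± 17.1 FPKM with GM-CSF alone and 1740.3 ± 3.83 FPKM without GM-CSF (SD, n = 2). Gstm1 made up 55.6 and 56.9% with DON, 40.1 and 41.6% with GM-CSF alone and 61.7 and 63.0% without GM-CSF of that sum, replicate by replicate.

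In the thioredoxin system, the cytosolic protein and its reductase moved in opposite directions with DON. Txn1, cytosolic thioredoxin, was at 759 and 716 CPM with DON, 495 and 511 CPM with GM-CSF alone and 946 and 1022 CPM without GM-CSF. The groups did not overlap, and the GM-CSF libraries were lowest. Txn1 fell with GM-CSF (-0.97 ± 0.05, adjusted p = 1.1e-07) and rose 1.47-fold with DON (0.55 ± 0.05, adjusted p = 7.38e-06). Txnrd1, the NADPH-dependent reductase that recharges it, lies on chromosome 10 from 82833951 to 82897712 and was at 201 and 202 CPM with DON, 326 and 298 CPM with GM-CSF alone and 417 and 404 CPM without GM-CSF. Its DON libraries were the lowest, and Txnrd1 fell with GM-CSF (-0.39 ± 0.05, adjusted p = 6.69e-05) and 1.55-fold with DON (-0.63 ± 0.05, adjusted p = 3.38e-06). Txnrd1 has 3 annotated starts in the promoter table, and the deposited gene counts do not separate them.

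In mitochondria the same parts are played by Txn2 and Txnrd2. Txn2 was at 144 and 140.2 CPM with DON, 165 and 161 CPM with GM-CSF alone and 125 and 125 CPM without GM-CSF. Its order was the reverse of Txn1's, with the GM-CSF libraries highest and no overlap between groups. Txn2 rose with GM-CSF (0.39 ± 0.04, adjusted p = 3.49e-05) and fell with DON (-0.20 ± 0.04, adjusted p = 0.00267). Txnrd2 was at 21.4 and 18.9 CPM with DON, 14.8 and 17.8 CPM with GM-CSF alone and 20.2 and 19.3 CPM without GM-CSF. It was called lower with GM-CSF (-0.28 ± 0.10, adjusted p = 0.0367) and higher with DON (0.30 ± 0.10, adjusted p = 0.0244). The first call was lost with scaling by total counts (-0.16, adjusted p = 0.196), in DESeq2 (-0.27, adjusted p = 0.114), in a fit of only the 4 libraries compared (-0.26, adjusted p = 0.0528), with a replicate block (-0.28, adjusted p = 0.0586), with GM-CSF replicate 1 left out (-0.15, adjusted p = 0.291) and with no GM-CSF replicate 1 left out (-0.24, adjusted p = 0.109), over a range between 0.00852 and 0.291. The second was lost in DESeq2 (0.29, adjusted p = 0.0775), with DON replicate 1 left out (0.21, adjusted p = 0.172) and with GM-CSF replicate 1 left out (0.17, adjusted p = 0.217), over a range between 0.0062 and 0.217. Srxn1, sulfiredoxin, which repairs over-oxidised peroxiredoxins, was at 108 and 102 CPM with DON, 123 and 118 CPM with GM-CSF alone and 243 and 235 CPM without GM-CSF. Srxn1 fell 1.98-fold with GM-CSF (-0.98 ± 0.05, adjusted p = 1.03e-07) and also fell with DON (-0.21 ± 0.05, adjusted p = 0.00475).

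**Figure D3:**
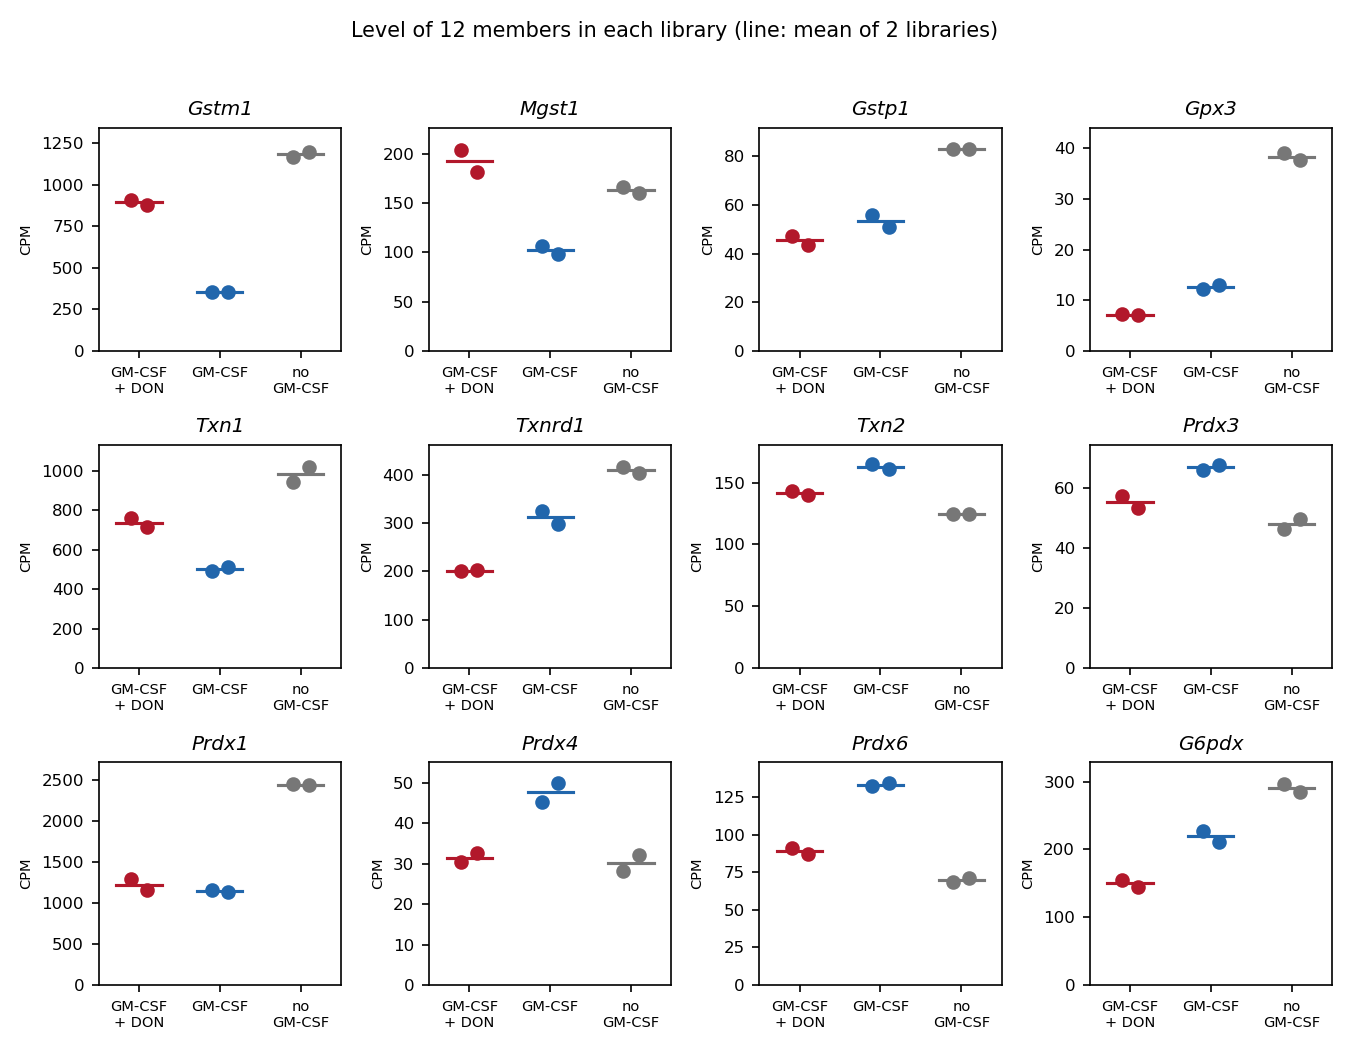
CPM of 12 members in each library, with GM-CSF and DON at the left, GM-CSF alone in the middle and no GM-CSF at the right, and a line at the mean of each group. The points of Gstm1 and Txn1 are lowest in the middle, those of Txn2, Prdx3, Prdx4 and Prdx6 are highest there, and those of Gpx3, Txnrd1 and G6pdx are lowest at the left.

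The peroxiredoxins, which reduce hydrogen peroxide with electrons from thioredoxin or glutathione, split into those that fell and those that rose with GM-CSF, 3 of 6 each (median 0.16), while 29.3% of all genes tested fell and 27.5% rose. Prdx1, a cytosolic form and the member with the highest FPKM, lies on chromosome 4 from 116685544 to 116700822 and was at 1289 and 1162 CPM with DON, 1164 and 1139 CPM with GM-CSF alone and 2453 and 2435 CPM without GM-CSF. The libraries without GM-CSF were far above the rest, and those with and without DON overlapped. Prdx1 fell 2.12-fold with GM-CSF (-1.09 ± 0.05, adjusted p = 4.74e-08), and its difference with DON was 0.09 ± 0.05 (adjusted p = 0.136), which passed with upper quartile scaling (0.16, adjusted p = 0.014) and with DON replicate 2 left out (0.17, adjusted p = 0.00897), over a range between 0.00897 and 0.823. Prdx5, found in mitochondria, peroxisomes and cytosol, was at 142 and 131 CPM with DON, 125 and 116 CPM with GM-CSF alone and 278 and 288 CPM without GM-CSF. Prdx5 fell 2.34-fold with GM-CSF (-1.23 ± 0.06, adjusted p = 5.13e-08), and its rise with DON (0.18 ± 0.06, adjusted p = 0.0196) was lost in limma on log2(FPKM + 1) (0.19, adjusted p = 0.057), with DON replicate 1 left out (0.12, adjusted p = 0.156) and with GM-CSF replicate 2 left out (0.12, adjusted p = 0.157), over a range between 0.00335 and 0.157. The neighbouring gene Trmt112 holds 15.5% of its 50-base words, and since the strand setting of the counting is not known, reads of such overlapping genes cannot be told apart.

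Prdx2, another cytosolic form, was at 97.7 and 91.4 CPM with DON, 102 and 106 CPM with GM-CSF alone and 117 and 117 CPM without GM-CSF. The steps between groups were small, and Prdx2 was called lower with GM-CSF (-0.17 ± 0.05, adjusted p = 0.016) and with DON (-0.14 ± 0.05, adjusted p = 0.0353). The first call was lost with scaling by total counts (-0.05, adjusted p = 0.435) and with GM-CSF replicate 1 left out (-0.14, adjusted p = 0.119), over a range between 0.00682 and 0.435. The second was lost with upper quartile scaling (-0.07, adjusted p = 0.307), with no filter on low counts (-0.14, adjusted p = 0.0518), with a replicate block (-0.14, adjusted p = 0.056), with DON replicate 2 left out (-0.09, adjusted p = 0.235), with GM-CSF replicate 1 left out (-0.17, adjusted p = 0.0554) and with GM-CSF replicate 2 left out (-0.11, adjusted p = 0.176), over a range between 0.00361 and 0.307.

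Prdx6, which also has phospholipase activity and takes part in surfactant turnover in the lung, was at 91.1 and 87.2 CPM with DON, 133 and 134 CPM with GM-CSF alone and 68.4 and 71.1 CPM without GM-CSF. The 3 groups were well apart, with the GM-CSF libraries highest. Prdx6 rose 1.91-fold with GM-CSF (0.94 ± 0.05, adjusted p = 1.33e-07) and was 1.5-fold lower with DON than with GM-CSF alone (-0.58 ± 0.05, adjusted p = 4.8e-06), but still above the level without GM-CSF (0.35 ± 0.05, adjusted p = 0.000157). Prdx4, the form of the endoplasmic reticulum, was at 30.4 and 32.6 CPM with DON, 45.3 and 50.02 CPM with GM-CSF alone and 28.3 and 32.1 CPM without GM-CSF. Prdx4 rose with GM-CSF (0.66 ± 0.08, adjusted p = 5.18e-05) and fell with DON (-0.60 ± 0.08, adjusted p = 0.000108). Its libraries with DON and without GM-CSF overlapped, with a difference of 0.06 ± 0.08 (adjusted p = 0.556). Prdx3, the mitochondrial form, which Txn2 serves, was at 57.3 and 53.3 CPM with DON, 66.1 and 67.8 CPM with GM-CSF alone and 46.4 and 49.6 CPM without GM-CSF. Prdx3 rose with GM-CSF (0.48 ± 0.06, adjusted p = 6.02e-05), fell with DON (-0.28 ± 0.06, adjusted p = 0.00223), and with DON was higher than without GM-CSF (0.20 ± 0.06, adjusted p = 0.0143), a call that was lost with DON replicate 1 left out (0.15, adjusted p = 0.105) and with no GM-CSF replicate 1 left out (0.15, adjusted p = 0.104), over a range between 0.00156 and 0.105.

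With DON 4 of the 6 peroxiredoxins fell and 1 rose (median -0.21), while 28.8% of all genes tested fell and 28.8% rose. The fall of Prdx2 and the rise of Prdx5 are among these counts and were lost under the alternatives named above. Their summed level was 1822 ± 136 FPKM with DON, 1808 ± 9.07 FPKM with GM-CSF alone and 3495 ± 17.0 FPKM without GM-CSF (SD, n = 2), so that the means with DON and with GM-CSF alone differed by less than their spread. Prdx1 made up 77.2 and 76.2% with DON, 73.6 and 73.6% with GM-CSF alone and 80.9 and 80.4% without GM-CSF of the sum, replicate by replicate. Prdx6, the largest of the 3 that rose with GM-CSF, made up 3.75 and 4.0% with DON, 5.47 and 5.81% with GM-CSF alone and 1.52 and 1.53% without GM-CSF.

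Catalase, which splits hydrogen peroxide in peroxisomes, was at 158 and 148 CPM with DON, 127 and 122 CPM with GM-CSF alone and 253 and 237 CPM without GM-CSF. The groups did not overlap. Cat fell 1.97-fold with GM-CSF (-0.98 ± 0.05, adjusted p = 1.91e-07) and rose with DON (0.30 ± 0.05, adjusted p = 0.000804). Sod2, the mitochondrial superoxide dismutase, was at 94.6 and 88.8 CPM with DON, 103 and 96.2 CPM with GM-CSF alone and 170.1 and 171 CPM without GM-CSF. Sod2 fell with GM-CSF (-0.78 ± 0.05, adjusted p = 8.55e-07), and with DON the difference was -0.12 ± 0.05 (adjusted p = 0.0768), which passed with scaling by total counts (-0.14, adjusted p = 0.0371) and with a crossed replicate block (-0.12, adjusted p = 0.045), over a range between 0.0371 and 0.517. Other genes hold 21% of the 50-base words of its transcripts. Sod1, the cytosolic enzyme, was at 58.2 and 59.8 CPM with DON, 56.1 and 50.5 CPM with GM-CSF alone and 79.5 and 76.1 CPM without GM-CSF. Sod1 fell with GM-CSF (-0.54 ± 0.06, adjusted p = 3.26e-05). Its difference with DON was 0.15 ± 0.06 (adjusted p = 0.0653) and was called with upper quartile scaling (0.22, adjusted p = 0.00984) and with GM-CSF replicate 1 left out (0.22, adjusted p = 0.0273), over a range between 0.00984 and 0.416.

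All 4 pentose phosphate enzymes among the members fell with GM-CSF (median -0.48), as did 29.3% of all genes tested. Among enzymes of the pathway that are not members, Pgls fell with GM-CSF (-0.66 ± 0.06, adjusted p = 5.36e-06). Rpe (0.30 ± 0.05, adjusted p = 0.000609) and Rpia (0.32 ± 0.06, adjusted p = 0.000928) rose. G6pdx, the glucose phosphate dehydrogenase, the NADPH-making first step, lies on chromosome X from 74409483 to 74429194 and was at 155 and 145 CPM with DON, 227 and 211 CPM with GM-CSF alone and 297 and 285 CPM without GM-CSF. The groups did not overlap, with the DON libraries lowest. G6pdx fell with GM-CSF (-0.41 ± 0.05, adjusted p = 8.91e-05) and 1.46-fold with DON (-0.55 ± 0.05, adjusted p = 1.48e-05). Pgd, phosphogluconate dehydrogenase, a later NADPH-making step, was at 492 and 439 CPM with DON, 518 and 523 CPM with GM-CSF alone and 777 and 745 CPM without GM-CSF. Pgd fell with GM-CSF (-0.55 ± 0.05, adjusted p = 1.3e-05), and its fall with DON (-0.16 ± 0.05, adjusted p = 0.026) was not called with upper quartile scaling (-0.09, adjusted p = 0.191), in limma on log2(FPKM + 1) (-0.17, adjusted p = 0.0506), with DON replicate 2 left out (-0.08, adjusted p = 0.222), with GM-CSF replicate 1 left out (-0.17, adjusted p = 0.0755) and with GM-CSF replicate 2 left out (-0.16, adjusted p = 0.0972), over a range between 0.00366 and 0.222. G6pdx shares 16.9% of its 50-base words with other genes, most of them Ikbkg.

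Taldo1 and Tkt, of the non-oxidative branch, which returns pentose phosphates to glycolysis, had smaller differences with DON than G6pdx, as Pgd did. Pgls, of the oxidative branch, rose with DON (0.42 ± 0.06, adjusted p = 0.000158). Taldo1, transaldolase, was at 311 and 299 CPM with DON, 317 and 302 CPM with GM-CSF alone and 558 and 530.4 CPM without GM-CSF. Tkt, transketolase, was at 585 and 571 CPM with DON, 611 and 613 CPM with GM-CSF alone and 741 and 722 CPM without GM-CSF. With GM-CSF, Taldo1 fell 1.76-fold (-0.81 ± 0.05, adjusted p = 2.23e-07) and Tkt 1.19-fold (-0.26 ± 0.04, adjusted p = 0.0002). With DON neither passed the test, with -0.02 ± 0.05 for Taldo1 (adjusted p = 0.722) and -0.08 ± 0.04 for Tkt (adjusted p = 0.0785), although Tkt passed with scaling by total counts (-0.11, adjusted p = 0.0252) and in DESeq2 (-0.10, adjusted p = 0.0475), over a range between 0.0252 and 0.877. Me1, the cytosolic malic enzyme, another source of NADPH, was the scarcest member, at 1.61 and 1.57 CPM with DON, 2.85 and 1.95 CPM with GM-CSF alone and 3.66 and 2.58 CPM without GM-CSF. Me1 was lower with DON than without GM-CSF (-0.97 ± 0.26, adjusted p = 0.00895), a call lost with DON replicate 2 left out (-0.95, adjusted p = 0.0552) and with no GM-CSF replicate 1 left out (-0.71, adjusted p = 0.0624), over a range between 0.0019 and 0.0624. It was not called with GM-CSF (-0.37 ± 0.24, adjusted p = 0.218). With DON its difference from GM-CSF alone was -0.60 ± 0.26 (adjusted p = 0.0757), which passed with GM-CSF replicate 2 left out (-0.84, adjusted p = 0.0376) and with no GM-CSF replicate 2 left out (-0.61, adjusted p = 0.0428), over a range between 0.0376 and 0.46. Other genes, most of all Gm7049, hold 28.3% of Me1's 50-base words.

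Beside the values above, most members were lower with both agents together than in the absence of GM-CSF. With log2 fold changes of the DON group over the group without GM-CSF in parentheses, the largest falls after Gpx3 and Mgst2 (-1.77 ± 0.20), and beside Me1, were of Nfe2l2 (-1.06), Txnrd1 (-1.03), Srxn1 (-1.19), Prdx1 (-1.0), Prdx5 (-1.05) and G6pdx (-0.96). Falls of intermediate size were of Hmox1 (-0.79), Gpx1 (-0.70), Gstp1 (-0.87), Cat (-0.68), Sod2 (-0.90), Pgd (-0.71) and Taldo1 (-0.83), and smaller falls of Gclm (-0.42), Gsr (-0.57), Gpx4 (-0.23), Mgst3 (-0.36), Txn1 (-0.42), Prdx2 (-0.31), Sod1 (-0.40) and Tkt (-0.34). The highest adjusted p among these was 0.00148. Txn2 (0.19 ± 0.04, adjusted p = 0.00464) and Gsto1 (0.24 ± 0.05, adjusted p = 0.00191) were higher with DON. Nqo1 (-0.14 ± 0.17, adjusted p = 0.519) and Txnrd2 (0.03 ± 0.10, adjusted p = 0.832) did not pass the test.

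The transferases, peroxiredoxins and pentose phosphate enzymes were set side by side by their summed levels. The sums of the transferases and peroxiredoxins are given above, and the pentose phosphate enzymes summed to 772 ± 32.9 FPKM with DON, 849 ± 12.3 FPKM with GM-CSF alone and 1261 ± 41.0 FPKM without GM-CSF. The ratio of the DON group to the GM-CSF group was 0.86 ± 0.07 on the log2 scale for the transferases. It was 0.01 ± 0.11 for the peroxiredoxins and -0.14 ± 0.06 for the pentose phosphate enzymes. The ± is an error combined from the SDs of the groups compared, with 2 libraries per group. The ratio of the GM-CSF group to the group without it was -1.13, -0.95 and -0.57 for the same families. From summed CPM the DON ratios were 0.95, 0.0067 and -0.15, and the GM-CSF ratios -1.22, -0.88 and -0.49, in the same order. No test was made of a difference between families, since the members were chosen with results of these data known. Over all members the sum was 6637 ± 333 FPKM with DON, 5841 ± 67.4 FPKM with GM-CSF alone and 10310.0 ± 17.6 FPKM without GM-CSF, and the members with the highest FPKM in the DON and no GM-CSF groups were Prdx1, Txn1 and Gstm1, in that order.

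**Figure D4:**
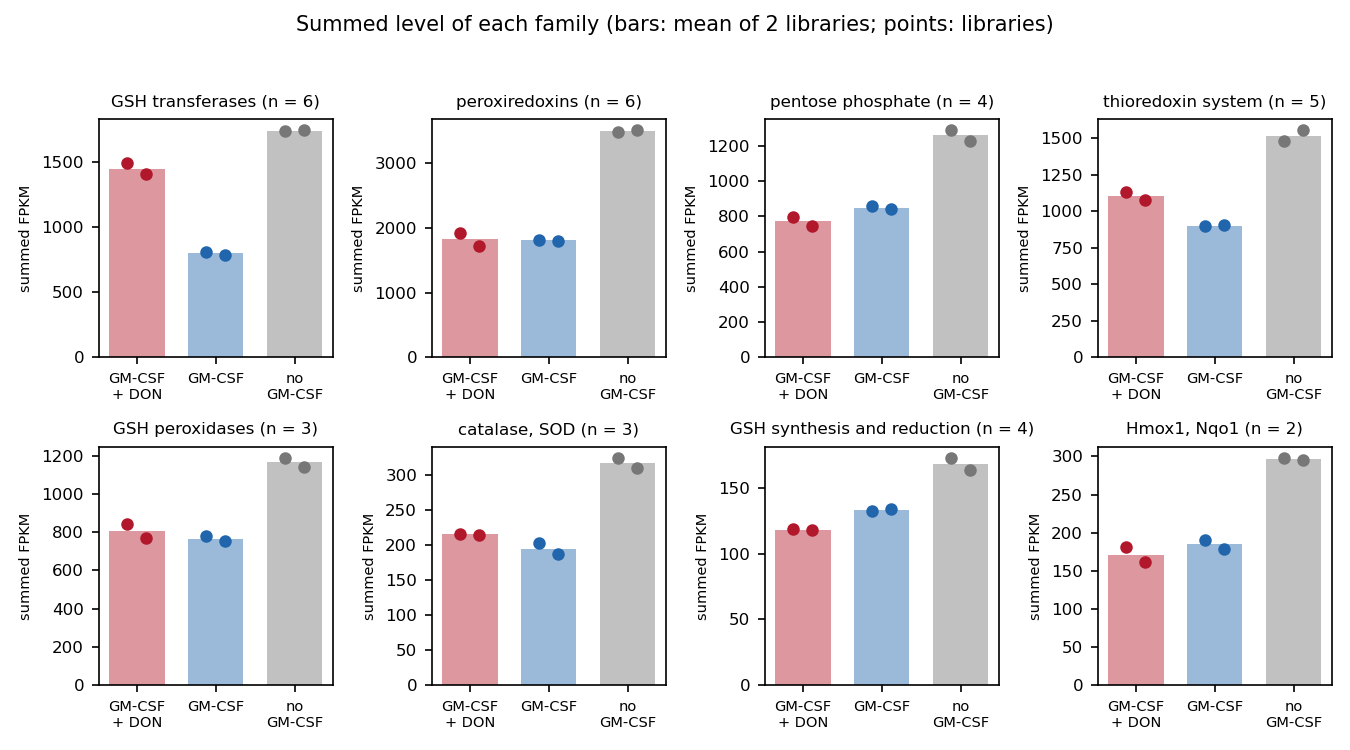
Summed FPKM of 8 families in each library, with bars at the mean of 2 libraries and points for the libraries, in the order GM-CSF with DON, GM-CSF alone and no GM-CSF. The bars without GM-CSF are highest in all 8 panels, and the transferase bar with DON is 1.82 times that with GM-CSF alone.

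Other genes of these systems were taken from lists written from general knowledge. Of 28 NRF2 partners and other targets tested, 3 rose (10.7%) and 17 fell (60.7%) with GM-CSF (median -0.33), and 13 rose (46.4%) and 9 fell (32.1%) with DON (median 0.13). Over all genes tested, 27.5% rose and 29.3% fell with GM-CSF, and 28.8% rose and 28.8% fell with DON, so the share of these genes that fell with DON was near that of all genes. Fth1, the ferritin heavy chain, was at 16300.2 and 14903 CPM with DON, 10465 and 10101 CPM with GM-CSF alone and 19516 and 19952 CPM without GM-CSF, and fell with GM-CSF (-0.94 ± 0.04, adjusted p = 5.75e-08). Blvrb, a biliverdin reductase downstream of haem oxygenase, was at 102 and 96.6 CPM with DON, 79.1 and 81.0 CPM with GM-CSF alone and 171 and 159.7 CPM without GM-CSF, and fell with GM-CSF as well (-1.05 ± 0.05, adjusted p = 1.22e-07). Both were highest without GM-CSF, as Hmox1 was. Unlike Hmox1, both rose with DON, Fth1 by 0.60 ± 0.04 (adjusted p = 1.91e-06) and Blvrb by 0.31 ± 0.05 (adjusted p = 0.000649). With DON the largest changes were of Ephx1, a microsomal epoxide hydrolase (1.52 ± 0.06), Slc3a2, the heavy chain shared by the cystine and other amino acid transporters (1.35 ± 0.04), and the exporter Abcc5 (1.09 ± 0.04), all 3 higher, with adjusted p of 6.38e-08, 2.77e-08 and 8.15e-08 in that order. Slc3a2 was at 607 and 569.7 CPM with DON, 232 and 228 CPM with GM-CSF alone and 219.5 and 221 CPM without GM-CSF. It was high in both DON libraries, and the other 4 libraries lay close together. Slc7a11, the light chain of the cystine transporter, did not pass the test with DON (-0.07 ± 0.08, adjusted p = 0.465). Cbr1, a carbonyl reductase, fell with GM-CSF (-0.78 ± 0.07, adjusted p = 9.53e-06). Abcc1, an exporter of glutathione conjugates, was lower with DON than without GM-CSF (-1.28 ± 0.08, adjusted p = 4.96e-07).

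Of 23 further glutathione genes tested, 5 rose (21.7%) and 9 fell (39.1%) with GM-CSF, and 11 rose (47.8%) and 3 fell (13%) with DON (median 0.41), beside 27.5% and 29.3% of all genes with GM-CSF and 28.8% each way with DON. Chac1, which degrades glutathione in the cytosol, was at 24.9 and 24.1 CPM with DON, 4.05 and 4.13 CPM with GM-CSF alone and 1.54 and 2.26 CPM without GM-CSF, and rose with DON (2.58 ± 0.12, adjusted p = 1.57e-07). Dpep2, a membrane-bound dipeptidase, was at 148 and 136 CPM with DON, 60.9 and 62.3 CPM with GM-CSF alone and 201 and 192 CPM without GM-CSF, and both fell with GM-CSF (-1.67 ± 0.05, adjusted p = 5.57e-09) and rose with DON (1.21 ± 0.05, adjusted p = 1.2e-07). Glrx, glutaredoxin, which removes glutathione from proteins, was at 20.4 and 20.1 CPM with DON, 51.3 and 45.2 CPM with GM-CSF alone and 42.3 and 41.8 CPM without GM-CSF, and fell with DON (-1.25 ± 0.07, adjusted p = 4.9e-07). Gstm4, a relative of Gstm1, was at 31.8 and 30.9 CPM with DON, 17.2 and 16.4 CPM with GM-CSF alone and 26.8 and 28.4 CPM without GM-CSF, and fell with GM-CSF (-0.72 ± 0.07, adjusted p = 9.56e-06). Like Gstm1, it was lowest with GM-CSF alone. Lap3, a leucine aminopeptidase that cleaves cysteinylglycine, rose with GM-CSF (1.20 ± 0.05, adjusted p = 5.3e-08).

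Of 17 further thioredoxin and peroxide genes tested, 5 rose (29.4%) and 7 fell (41.2%) with GM-CSF, and 5 rose (29.4%) and 5 fell (29.4%) with DON, the last 2 shares being near the 28.8% of all genes each way and the first near the 27.5% of all genes. Txnip, which binds and inhibits thioredoxin, was at 59.5 and 56.2 CPM with DON, 134 and 139 CPM with GM-CSF alone and 249 and 242 CPM without GM-CSF. Txnip fell with GM-CSF (-0.84 ± 0.05, adjusted p = 2.52e-07) and with DON (-1.24 ± 0.05, adjusted p = 7.16e-08), so its DON libraries were lowest while those of Txn1 were not. Sesn2, sestrin, a stress-induced regulator of nutrient signalling, was at 119 and 117 CPM with DON, 34.3 and 39.0 CPM with GM-CSF alone and 23.7 and 26.7 CPM without GM-CSF, and rose with DON (1.69 ± 0.07, adjusted p = 9.43e-08). Sepw1, a small selenoprotein, rose with DON too (1.09 ± 0.07, adjusted p = 8.52e-07). Msra, which repairs oxidised methionine, fell with GM-CSF (-0.45 ± 0.06, adjusted p = 0.000162).

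Of 17 further genes of NADPH metabolism and linked pathways tested, 8 rose (47.1%) and 7 fell (41.2%) with GM-CSF. With DON, 4 rose (23.5%) and 9 fell (52.9%). The shares of all genes were 27.5% and 29.3% with GM-CSF and 28.8% each way with DON. Not all of the 17 make NADPH, and among those that do not, Rpe and Rpia rose with GM-CSF and fell with DON. Mthfd2, a mitochondrial folate dehydrogenase, was at 199 and 199 CPM with DON, 104 and 109 CPM with GM-CSF alone and 44.6 and 54.9 CPM without GM-CSF. It rose with GM-CSF (1.10 ± 0.08, adjusted p = 1.71e-06) and with DON (0.90 ± 0.08, adjusted p = 6.71e-06). Idh1, the cytosolic NADP-dependent isocitrate dehydrogenase, was at 178 and 170.1 CPM with DON, 161 and 165 CPM with GM-CSF alone and 331 and 325 CPM without GM-CSF. Nadk, the kinase that makes NADP, was at 244 and 240.4 CPM with DON, 206 and 202 CPM with GM-CSF alone and 422 and 412 CPM without GM-CSF. Both fell with GM-CSF, with log2 fold changes of -1.01 ± 0.04 for Idh1 and -1.03 ± 0.04 for Nadk (adjusted p = 3.7e-08 and 1.69e-08). Idh2, the mitochondrial form of the dehydrogenase, was at 67.1 and 69.0 CPM with DON, 101 and 103 CPM with GM-CSF alone and 59.3 and 59.8 CPM without GM-CSF, and fell with DON (-0.58 ± 0.05, adjusted p = 4.1e-06). Mthfd1, the cytosolic folate enzyme, fell with DON as well (-0.49 ± 0.05, adjusted p = 2.74e-05). H6pd, which makes NADPH in the endoplasmic reticulum, was lower with DON than without GM-CSF (-1.28 ± 0.09, adjusted p = 1.15e-06).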

How the data were processed

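RNA was sequenced from 6 libraries in 3 groups, and groups and replicate numbers come from the sample titles. The authors deposited whole-number counts per gene symbol and FPKM for the same genes. The submitters' processing notes list the build mm10 and the tools DESeq2 1.28.1, STAR 2.6.0a, Subread 1.4.6 and featureCounts, with no roles. The gene annotation and strand setting behind the counts were not given in the sources used here.

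Counts were analysed with edgeR 4.0.16 in R 4.3.3. Genes were filtered with filterByExpr (minimum count 10), libraries scaled by TMM, and all 6 libraries entered 1 model with 3 group means (3 residual degrees of freedom). Contrasts were two-sided quasi-likelihood tests. SE is the absolute log2 fold change over the square root of F. The procedure was also run on simulated counts drawn with the same spread for all genes, so that run gives no error rate for the calls here. Reads are not independent molecules, so precision here covers the spread between libraries only, from 28321986 to 35196387 counts each. Replicate differences gave a chi-square per degree of freedom of 4.50 to 8.46, so no pair of replicates agreed within sampling noise.

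Members and lists were chosen with earlier results of these data known. All members are named, and of each other list up to 3 genes per comparison, the called genes with the largest fold changes whose mean in the compared groups reached 10 CPM. Pgls, Rpe, Rpia, Slc7a11, Rac1 and Gstp2 are named in addition, beside related genes. FPKM and counts differ in the gene length they imply: its range over libraries exceeded 5% for 10 of 33 members, 27.5% for Gclm. Shared sequence was counted as 50-base words of GENCODE M21 transcripts found, on either strand, in another gene. Alternatives were DESeq2 1.42.0, limma 3.58.1 on log2(FPKM + 1), other scaling, no filter, fewer libraries and a replicate block. A planned comparison of protein sequences was not run.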

Additional observations from a re-analysis of the deposited data

How the results depend on the processing

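Over 15 alternatives, 30 of 36 members kept their direction and their side of the threshold throughout for GM-CSF, 18 for DON against GM-CSF alone and 28 for both agents against none. Leaving out 1 library at a time gave 4 members higher each time and 26 to 28 lower with GM-CSF, 7 to 12 and 9 to 14 with DON, and 4 to 6 and 24 to 26 with both against no GM-CSF. The lone library left in a group was then assumed to vary like the others. Direction turned for members that were not called: with total-count scaling Keap1 (0.046) and Gsto1 (0.086) for GM-CSF, and Keap1 (0.076) for both agents against no GM-CSF. With upper quartile scaling it turned for Gpx1 (0.072) and Taldo1 (0.055) for DON, and for Keap1 (0.022) in the third comparison. Leaving out 1 library at a time gave -0.063 to 0.058 for Gpx1 and -0.057 to 0.012 for Taldo1 in the DON comparison, positive with DON replicate 2 or GM-CSF replicate 1 left out, and in the third comparison -0.065 to 0.12 for Txnrd2, negative with DON replicate 1 or no GM-CSF replicate 2 left out, and -0.034 to 0.15 for Prdx4, negative with no GM-CSF replicate 1 left out. In limma, Txnrd2 was -0.022 there. The longer motif was in 2 promoters instead of 10. Except for the motif, where more letters must match, the cause was not tested.

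Total-count scaling moved the median of all genes for GM-CSF to 0.10, against -0.02 with TMM, and called 4587 higher and 2689 lower genes there, against 3393 higher and 3621 lower. In the third comparison it called 4408 higher and 2745 lower, against 3353 higher and 3506 lower. With a replicate block, 4 higher and 27 lower members were called for GM-CSF, 11 higher and 12 lower for DON and 6 higher and 26 lower in the third comparison. Over all genes that block called 3238 higher and 3470 lower for GM-CSF and 3433 higher and 3449 lower for DON. In the third comparison it called 3185 higher and 3357 lower genes. The block ended the calls of Txnrd2 for GM-CSF and of Prdx2 for DON. Nothing in the labels ties equal numbers together, and differences between replicates correlated at -0.05 to 0.07 between the GM-CSF group and the others, and at -0.31 between the DON group and the group without GM-CSF. A crossed block, added after that was seen, called 6 higher and 26 lower members and 3461 higher and 3602 lower genes in the third comparison. Depth limits Nqo1, Mgst2 and Me1, which had under 200 counts in each library.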

Other observations

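The phagocyte NADPH oxidase, which spends NADPH to make superoxide, was listed beside the members. Of 8 of its genes tested, 2 rose (25%) and 4 fell (50%) with GM-CSF, and 4 rose (50%) and 2 fell (25%) with DON. Over all genes tested, 27.5% rose and 29.3% fell with GM-CSF, and 28.8% rose and 28.8% fell with DON. Cybb, the catalytic subunit, was at 1402 and 1461 CPM with DON, 1257 and 1287 CPM with GM-CSF alone and 3623 and 3378 CPM without GM-CSF. It fell with GM-CSF (-1.46 ± 0.04, adjusted p = 3.1e-09 in edgeR's test), and with DON it was also lower than without GM-CSF (-1.29 ± 0.04, adjusted p = 6.7e-09). Against GM-CSF alone, Cybb rose with DON (0.17 ± 0.04, adjusted p = 0.00619). Ncf4, a regulatory subunit of the cytosol, was at 38.6 and 38.6 CPM with DON, 28.2 and 26.3 CPM with GM-CSF alone and 142 and 150.01 CPM without GM-CSF. Ncf4 fell with GM-CSF (-2.42 ± 0.06, adjusted p = 7.23e-10) and rose with DON (0.50 ± 0.06, adjusted p = 5.91e-05). Ncf1, the organiser subunit, was at 641 and 679 CPM with DON, 269 and 287 CPM with GM-CSF alone and 247 and 249 CPM without GM-CSF. It was highest with DON, 1.25 ± 0.05 over GM-CSF alone on the log2 scale (adjusted p = 4.77e-08). Rac2, a GTPase of the complex, fell with GM-CSF (-0.40 ± 0.04) and with DON (-0.40 ± 0.04), with adjusted p of 1.83e-05 and 2.14e-05. Rac1, a related GTPase, rose with GM-CSF (0.33 ± 0.04, adjusted p = 4.33e-05) and fell with DON (-0.33 ± 0.04, adjusted p = 4.5e-05).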
